A study of Homo sapiens with 6 samples.

Results

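Chromatin accessibility was examined at 10 transcription regulator genes of the neural crest specifier circuit: MSX1, MSX2, PAX3, PAX7, TFAP2A, TFAP2B, TFAP2C, FOXD3, ETS1 and LMO4. A peak belonged to a gene when its centre lay in the GENCODE release 44 body of that gene, or when it lay outside every protein-coding gene and the start site of that gene was the nearest of any protein-coding gene. This gave 313 of the 152800 peaks in the table, and all 313 passed the filter on low counts. The cells were A375, an established human melanoma line, stably transduced with lentivirus carrying either an empty vector (3 libraries) or a vector for overexpression of HMGB2, a chromatin-binding high mobility group box protein (HMGB2OE, 3 libraries). The study describes the 3 libraries of a group as technical replicates of an experiment that was not repeated, so every p-value below measures the spread between these libraries alone. The comparison addresses whether HMGB2 alters which chromatin is open in these cells. A nearest start site does not show that a peak regulates that gene.

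The neural crest is an embryonic cell population that forms at the border of the neural plate, leaves the neural tube and gives rise to melanocytes, peripheral neurons, glia and craniofacial skeleton. MSX, PAX and TFAP2 factors first mark the border and then, with FOXD3, ETS1 and other factors, set up the crest program that includes SOX10. In the melanocyte lineage PAX3 and SOX10 act upstream of MITF, TFAP2A cooperates with MITF, and FOXD3 has been described as a brake on the melanocyte fate of crest cells.

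Accessibility rose at the MSX1 and MSX2 loci and not detectably at the other 8 genes. Summed over all peaks of a gene, normalized counts were 1.34-fold higher in HMGB2OE cells at MSX1 and 1.15-fold higher at MSX2. The rise was found in peaks away from the start sites, while the promoter peaks of both genes had nearly the same counts in both groups. Of the 313 peaks, 15 were called higher (4.79%) and 3 lower (0.958%), against 1.87% and 1.44% of the 150117 peaks tested in all. MSX1 and MSX2 held 8 of the 15. Calls required a fold change of 1.5 or more together with an adjusted p below 0.05 in the edgeR quasi-likelihood test, with Benjamini-Hochberg adjustment over every tested peak. At the adjusted p alone the counts were 20 higher and 11 lower, against 3.44% and 3.03% of all peaks. In bulk libraries, more cells with a site open and a more open site in each cell cannot be told apart.

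The sequences below are the middle 300 bases of the 3 called peaks with the largest rises at MSX1, the called peak with the largest rise at MSX2, and the highest-count called peak of TFAP2A. They are read from hg38 on the plus strand, 5′ to 3′. Capitals mark the word TGACTCA or its reverse complement TGAGTCA, the core of the site bound by AP-1, the dimers of FOS and JUN proteins.
MSX1, 96.6 kb upstream, chr4:4762932-4763231: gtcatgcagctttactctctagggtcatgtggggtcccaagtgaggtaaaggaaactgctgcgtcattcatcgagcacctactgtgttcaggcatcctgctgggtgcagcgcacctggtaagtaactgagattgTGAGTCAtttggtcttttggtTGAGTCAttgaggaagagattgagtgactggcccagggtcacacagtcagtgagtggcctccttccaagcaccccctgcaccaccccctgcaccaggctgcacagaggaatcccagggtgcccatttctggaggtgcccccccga
MSX1, 95.9 kb upstream, chr4:4763647-4763946: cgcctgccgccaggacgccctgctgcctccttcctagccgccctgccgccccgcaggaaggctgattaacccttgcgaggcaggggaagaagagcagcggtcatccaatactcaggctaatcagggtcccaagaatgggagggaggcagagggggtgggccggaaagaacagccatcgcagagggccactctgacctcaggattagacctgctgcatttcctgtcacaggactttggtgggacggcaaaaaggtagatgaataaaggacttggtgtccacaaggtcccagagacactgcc
MSX1, 21.6 kb upstream, chr4:4837964-4838263: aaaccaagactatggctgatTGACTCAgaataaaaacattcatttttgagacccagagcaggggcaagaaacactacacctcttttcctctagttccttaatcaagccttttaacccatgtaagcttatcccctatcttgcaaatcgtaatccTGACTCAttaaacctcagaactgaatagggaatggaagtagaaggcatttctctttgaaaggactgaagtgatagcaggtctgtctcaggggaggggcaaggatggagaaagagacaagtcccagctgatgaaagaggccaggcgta
MSX2, 175 kb upstream, chr5:174549249-174549548: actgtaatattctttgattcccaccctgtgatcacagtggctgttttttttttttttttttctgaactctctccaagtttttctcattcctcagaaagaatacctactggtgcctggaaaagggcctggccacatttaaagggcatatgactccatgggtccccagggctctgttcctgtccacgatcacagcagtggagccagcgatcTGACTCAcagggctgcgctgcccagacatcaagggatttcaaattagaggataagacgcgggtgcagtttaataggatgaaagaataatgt
TFAP2A, 653 kb downstream of its start, chr6:9766219-9766518: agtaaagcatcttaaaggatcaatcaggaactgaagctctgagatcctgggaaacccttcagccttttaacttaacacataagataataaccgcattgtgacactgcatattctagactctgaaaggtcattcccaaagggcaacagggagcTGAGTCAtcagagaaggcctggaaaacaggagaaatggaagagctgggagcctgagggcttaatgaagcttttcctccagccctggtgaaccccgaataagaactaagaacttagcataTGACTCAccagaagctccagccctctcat

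The promoters of MSX1 and MSX2 are shown because their peaks stayed near a log2 fold change of 0 while the distal peaks rose. They are RefSeq sequences on GRCh38.p14, plus strand, from 250 bases before to 50 bases after the start. The capitals in the MSX2 promoter mark TAATTA, a word that homeodomain proteins such as MSX1 and MSX2 can bind.
MSX1 promoter, chr4:4859415-4859714: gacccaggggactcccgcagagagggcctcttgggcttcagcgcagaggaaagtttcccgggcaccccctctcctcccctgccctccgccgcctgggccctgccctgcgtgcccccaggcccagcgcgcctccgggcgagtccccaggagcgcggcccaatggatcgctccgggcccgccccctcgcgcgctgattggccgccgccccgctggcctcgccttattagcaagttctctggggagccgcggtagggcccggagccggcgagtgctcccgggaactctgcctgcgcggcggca
MSX2 promoter, chr5:174724332-174724631: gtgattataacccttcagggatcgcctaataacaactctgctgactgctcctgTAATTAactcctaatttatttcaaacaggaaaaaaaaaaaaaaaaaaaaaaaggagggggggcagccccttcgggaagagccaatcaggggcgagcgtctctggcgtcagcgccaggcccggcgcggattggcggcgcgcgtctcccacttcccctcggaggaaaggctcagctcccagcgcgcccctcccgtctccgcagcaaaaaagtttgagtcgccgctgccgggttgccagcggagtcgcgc

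MSX1 encodes a homeodomain repressor that acts early at the neural plate border. The gene lies at chr4:4859665-4863936 on the plus strand. Its 15 peaks held 1571, 1392 and 1601 normalized counts in the empty vector libraries and 2088, 2054 and 1944 in the HMGB2OE libraries. Every HMGB2OE library was above every empty vector library. The log2 fold change of the locus was 0.42 (SE 0.056, adjusted p = 0.000195, edgeR quasi-likelihood test over 18340 protein-coding loci), and it stayed between 0.35 and 0.46 when any library was left out. Over all loci, the 5th and 95th percentiles of the log2 fold change were -0.20 and 0.26. Loci were called at the adjusted p alone, with no limit on fold, and 5.83% of all loci were called higher and 3.44% lower.

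**Figure D1:**
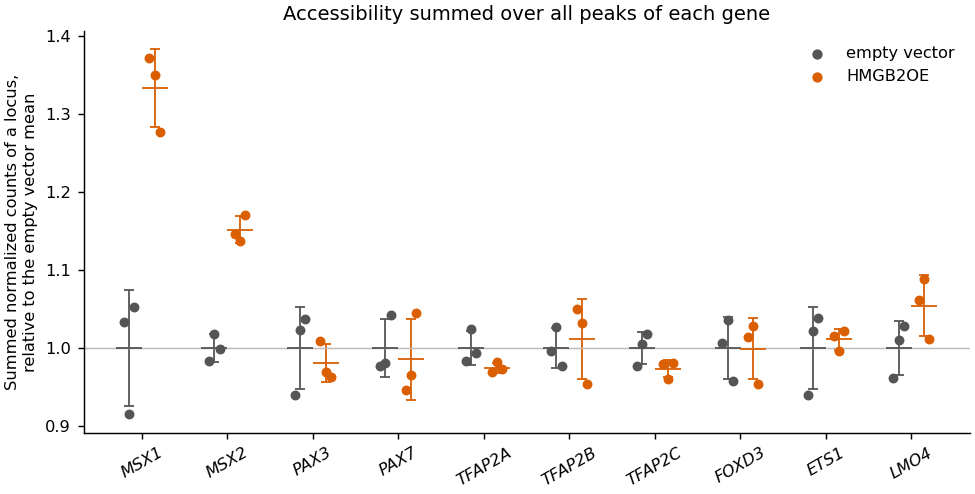
Normalized counts summed over all peaks of each of the 10 genes, divided by the mean of the 3 empty vector libraries. Points are libraries, and bars give the mean ± SD (n = 3). The HMGB2OE libraries lie above all empty vector libraries at MSX1 (1.34-fold) and MSX2 (1.15-fold), and the other 8 genes were not called.

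MSX2, the close relative of MSX1, lies at chr5:174724582-174730896 on the plus strand and takes part in crest and skull development. Its 37 peaks held 7500, 7770 and 7627 normalized counts in the empty vector libraries and 8751, 8677 and 8934 in the HMGB2OE libraries. The groups did not overlap. The log2 fold change was 0.20 (SE 0.036, adjusted p = 0.00206, edgeR), with a range of 0.19 to 0.21 when any library was left out. Unlike that of MSX1, this value lay between the 5th and 95th percentiles of all loci (-0.20 and 0.26). Within 1 Mb of each gene, tested peaks that belonged to other genes had a median log2 fold change of 0.04 around MSX1 (110 peaks) and -0.01 around MSX2 (65 peaks).

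At MSX1 the largest rise lay 96.6 kb upstream of the start site, in an intergenic peak that overlaps the long non-coding gene STX18-AS1 (chr4:4762831-4763332). Its normalized counts were 62.5, 60.2 and 87.8 in empty vector cells and 161, 180 and 189 in HMGB2OE cells. All 3 HMGB2OE libraries were above all 3 empty vector libraries, and the log2 fold change was 1.33 (SE 0.17, adjusted p = 1.5e-05, edgeR). A neighbouring peak 95.9 kb upstream went from 66.7, 45.6 and 50.3 to 113, 119 and 110. Its log2 fold change was 1.10 (SE 0.19). Between these peaks and the gene, a peak 21.6 kb upstream (chr4:4837863-4838364) had 84.8, 66.3 and 80.7 counts in empty vector cells and 185, 135 and 145 in HMGB2OE cells, a log2 fold change of 1.02 (SE 0.17). The fourth called peak, 107 kb upstream, was weaker: counts were 50.03, 38.7 and 64.4 against 81.6, 80.9 and 87.8 (log2 fold change 0.72, adjusted p = 0.041, edgeR). This last call was lost when any library other than empty vector replicate 3 was left out, with an adjusted p of up to 0.225.

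The remaining MSX1 peaks mostly had higher counts in HMGB2OE cells without being called. Of the 14 peaks more than 3 kb from the start, 13 had a log2 fold change above 0, as did 51.8% of all peaks outside promoters. The median of the 14 was 0.64. In 8 of the 14 the groups did not overlap, all with HMGB2OE above, and over all tested peaks 12.6% had this order and 12.5% the opposite. A peak 39.3 kb upstream passed the adjusted p but not the fold limit, with 122, 152 and 150 counts against 193, 222 and 195 (log2 fold change 0.51). The most downstream peak, 60.4 kb past the start, had the only value below 0 (-0.11). These distal peaks were weak, with a median of 57.2 normalized counts against 92.0 for peaks outside promoters in general.

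The MSX1 promoter peak differed in both respects. It held 40.2% of all counts of the locus, with 734, 701 and 687 counts in empty vector libraries and 744, 727 and 673 in HMGB2OE libraries. The groups overlapped and the log2 fold change was 0.02 (SE 0.087, adjusted p = 0.937, edgeR). Distal counts divided by promoter counts, which do not depend on library scaling, were 1.11, 1.04 and 1.36 in empty vector libraries and 1.79, 1.80 and 1.83 in HMGB2OE libraries. For MSX2 this ratio was 8.90 ± 0.196 and 10.2 ± 0.395 (SD, n = 3), again without overlap. An exact two-sided permutation test gave p = 0.1 for both, the smallest value that 3 against 3 libraries allow, and 0.3 after Benjamini-Hochberg adjustment over the 9 genes with a promoter peak. TFAP2C was the only other gene whose ratios did not overlap, at 8.80 ± 0.182 against 9.23 ± 0.118. Its distal counts did not rise, at 11330, 12220 and 12150 in empty vector libraries and 11540, 11240 and 11390 in HMGB2OE libraries. Its promoter peak had a log2 fold change of -0.13.

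**Figure D2:**
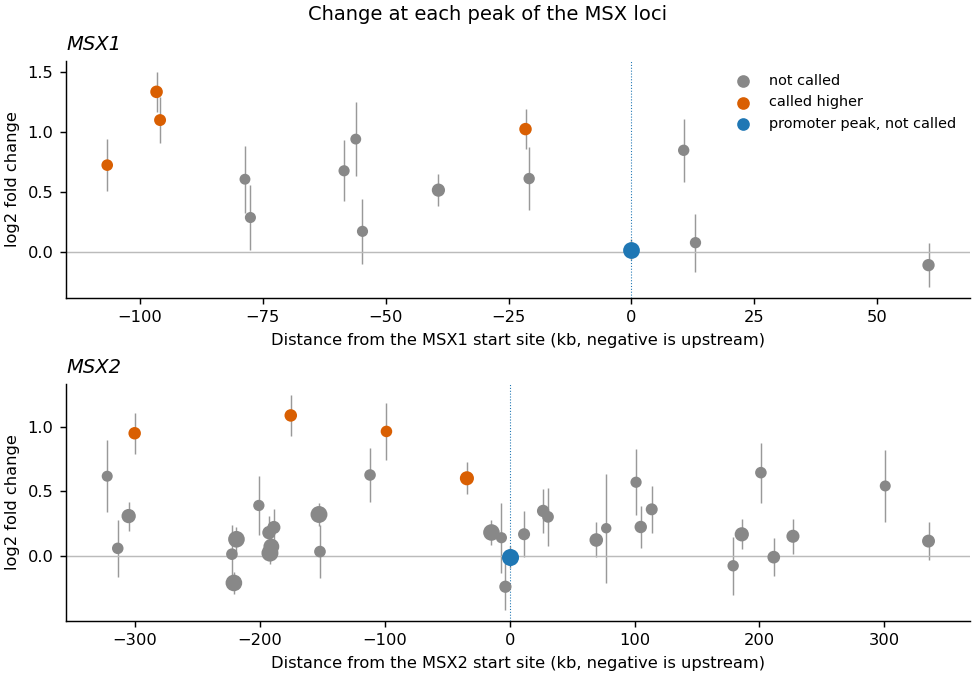
The log2 fold change of every MSX1 and MSX2 peak against its distance from the start site in kb. Vertical lines are ± SE and larger points have more counts. The 4 called peaks of each gene lie upstream, from 21.6 to 107 kb at MSX1 and from 34.2 to 300.1 kb at MSX2, and the promoter peaks sit at 0.02 and -0.0024.

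At MSX2 the called peaks were spread over a longer stretch. The largest rise was 175 kb upstream (chr5:174549148-174549649), where counts went from 77.8, 85.2 and 66.7 to 155, 168 and 169 (log2 fold change 1.09, SE 0.16, adjusted p = 8.7e-05, edgeR). A peak 98.6 kb upstream had 52.8, 41.3 and 37.4 counts in empty vector cells and 74.8, 81.7 and 99.1 in HMGB2OE cells, a log2 fold change of 0.96 (SE 0.22). A peak 300.1 kb upstream, within the non-coding gene LINC01411, went from 87.6, 74.0 and 78.4 to 167, 138 and 155, a log2 fold change of 0.95 (SE 0.16). None of these 3 peaks had overlapping groups, and each kept its call when any library was left out. The call 34.2 kb upstream was close to the fold limit, with 186, 219 and 211 counts against 293, 284 and 365 (log2 fold change 0.60). Its fold change fell under the limit without empty vector replicate 1 (log2 fold change 0.54) and without HMGB2OE replicate 3 (0.49), and also with the GC trend removed (0.54).

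Across MSX2, 32 of 37 peaks had a log2 fold change above 0 (86.5%, against 49.2% of all tested peaks). The median was 0.18, against -0.0049 over all tested peaks. The groups did not overlap in 13 peaks, 12 with HMGB2OE above (32.4%, against 12.6% of all) and 1 below (2.70%, against 12.5%). The exception was a strong peak 221 kb upstream, with 695, 765 and 727 counts against 627, 642 and 629. A peak of similar strength 153 kb upstream went the other way, from 614, 730 and 646 to 817, 827 and 854 (log2 fold change 0.32, adjusted p = 0.024, edgeR), below the fold limit. The promoter peak had 741, 827 and 770 counts in empty vector libraries and 813, 754 and 770 in HMGB2OE libraries, with a log2 fold change of -0.0024 (SE 0.085).

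Without the MSX genes, the other 8 genes had 261 peaks, of which 7 were called higher (2.68%) and 3 lower (1.15%), with a median log2 fold change of -0.02. These shares are near the 1.87% and 1.44% of all peaks.

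**Figure D3:**
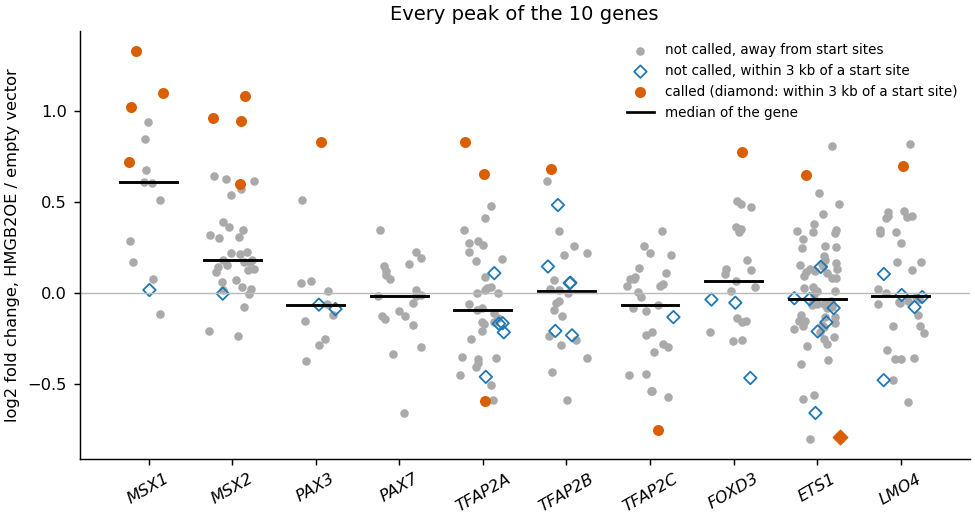
The log2 fold change of each of the 313 peaks by gene. Black lines are medians, blue diamonds are peaks within 3 kb of a start site, and orange symbols are called peaks. The medians are 0.61 at MSX1 and 0.18 at MSX2, and between -0.09 and 0.07 at the other genes.

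PAX3, a paired-domain factor that drives MITF in melanocytes, had no detectable change at its locus. Its 13 peaks held 4052, 4409 and 4469 counts in empty vector libraries and 4349, 4180 and 4152 in HMGB2OE libraries (log2 fold change -0.03, adjusted p = 0.714, edgeR). The groups overlapped. The called peak lay 222 kb downstream of the start, where counts were 72.3, 70.6 and 98.3 against 137, 157 and 134 (log2 fold change 0.83, SE 0.17). A stronger peak 302 kb downstream fell by less than the fold limit, from 475, 519 and 513 to 408, 406 and 347 (log2 fold change -0.37, adjusted p = 0.023, edgeR). PAX7, its relative in the dorsal neural tube, had 21 peaks and none was called. The shares over the whole peak set were 1.87% higher and 1.44% lower, so few calls could arise in 21 peaks. None of the 21 had groups apart either, although that order was common elsewhere. HMGB2OE lay wholly above in 12.6% of the whole set and wholly below in 12.5%. No PAX7 peak lay within 3 kb of a start site, and its locus held 2432, 2444 and 2597 counts against 2358, 2405 and 2602.

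The TFAP2 genes encode AP-2 factors, which open enhancers in crest and in melanocytes. TFAP2A had 41 peaks and its locus sums were slightly but not significantly lower in HMGB2OE cells, at 9900, 10316 and 10002 against 9760, 9887 and 9801 (log2 fold change -0.04, adjusted p = 0.552, edgeR). The groups did not overlap, but the difference was small. Its strongest call was a peak 653 kb downstream (chr6:9766118-9766619) in OFCC1, annotated as a pseudogene, where counts went from 335, 369 and 357 to 578, 551 and 548. The log2 fold change there was 0.66 (SE 0.098, adjusted p = 0.000113, edgeR), the fold was kept when any library was left out (0.62 to 0.69), and the 2 groups were well apart. A weaker peak 281 kb downstream, also in OFCC1, went from 41.7, 67.1 and 72.6 to 102, 113 and 113. In an intron 24.2 kb downstream of the start, counts fell from 213, 169 and 174 to 124, 120 and 122 (log2 fold change -0.59, adjusted p = 0.00977, edgeR). This call was close to the fold limit and was lost without empty vector replicate 1 (-0.49) or HMGB2OE replicate 2 (-0.58).

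TFAP2B and TFAP2C did not change at the locus level, with log2 fold changes of 0.02 and -0.04 (adjusted p = 0.831 and 0.553, edgeR). The called TFAP2B peak, 134 kb downstream, had 59.8, 63.7 and 51.5 counts against 104, 93.4 and 84.4 (log2 fold change 0.68, adjusted p = 0.03, edgeR). That call survived leaving out HMGB2OE replicate 3, but without any other single library the edgeR adjusted p lay between 0.053 and 0.149. TFAP2C had the opposite balance to the MSX genes. In 10 of its 29 peaks all HMGB2OE libraries were below all empty vector libraries (34.5%, against 12.5% of all peaks), and 1 had the opposite order. A called peak 155 kb downstream of TFAP2C fell from 133, 95.5 and 83.1 to 53.6, 59.2 and 72.0 (log2 fold change -0.75, adjusted p = 0.023, edgeR). Without empty vector replicate 1, HMGB2OE replicate 1 or HMGB2OE replicate 2 it was not called, with edgeR adjusted p-values of 0.14, 0.115 and 0.075. Another 3 TFAP2C peaks passed the adjusted p with falls of less than 1.5-fold, among them a peak in an intron 7.56 kb downstream with 1062, 1017 and 902 counts against 811, 877 and 739.

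FOXD3, a forkhead factor of premigratory crest, had 23 peaks, and 20 of them lay over 3 kb upstream. The locus held 7621, 7850 and 7261 counts in empty vector libraries and 7688, 7790 and 7231 in HMGB2OE libraries, with no difference detected (log2 fold change -0.0014, adjusted p = 0.987, edgeR). A peak 170 kb upstream rose from 73.7, 111 and 86.6 to 157, 168 and 145 (log2 fold change 0.77, SE 0.16), and it kept its call when any library was left out. Peaks 173 and 60.6 kb upstream passed the adjusted p with smaller rises (log2 fold changes 0.48 and 0.49).

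ETS1, which regulates migration of crest cells, had the most peaks, 70, and the highest counts. Its locus held 23827, 25883 and 26317 counts against 25725, 25236 and 25900, and the groups overlapped (log2 fold change 0.02, adjusted p = 0.863, edgeR). A peak 526 kb downstream rose from 297, 344 and 335 to 472, 480 and 593 (log2 fold change 0.65, SE 0.11). Without HMGB2OE replicate 3 its log2 fold change was 0.54, under the fold limit. An intronic peak 63.8 kb inside the gene, within 3 kb of an alternative start, fell from 122, 87.8 and 93.6 to 74.8, 53.4 and 43.9 (log2 fold change -0.79, adjusted p = 0.02, edgeR). It lost its call without empty vector replicate 1, HMGB2OE replicate 2 or HMGB2OE replicate 3, with edgeR adjusted p-values of 0.105, 0.081 and 0.096. A stronger peak 380 kb downstream fell from 739, 868 and 817 to 581, 581 and 484, a log2 fold change of -0.56, just under the fold limit.

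LMO4, a LIM-only adaptor that bridges transcription factors and has been linked to crest and neuroblastoma, had 38 peaks. Its locus sums of 5911, 6205 and 6317 against 6524, 6689 and 6215 gave a log2 fold change of 0.08 that did not pass the test (SE 0.04, adjusted p = 0.252, edgeR). The called peak, 314 kb downstream in the non-coding gene PKN2-AS1, rose from 175, 206 and 212 to 353, 322 and 289 (log2 fold change 0.70, SE 0.12). This call held when any library was left out.

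**Figure D4:**
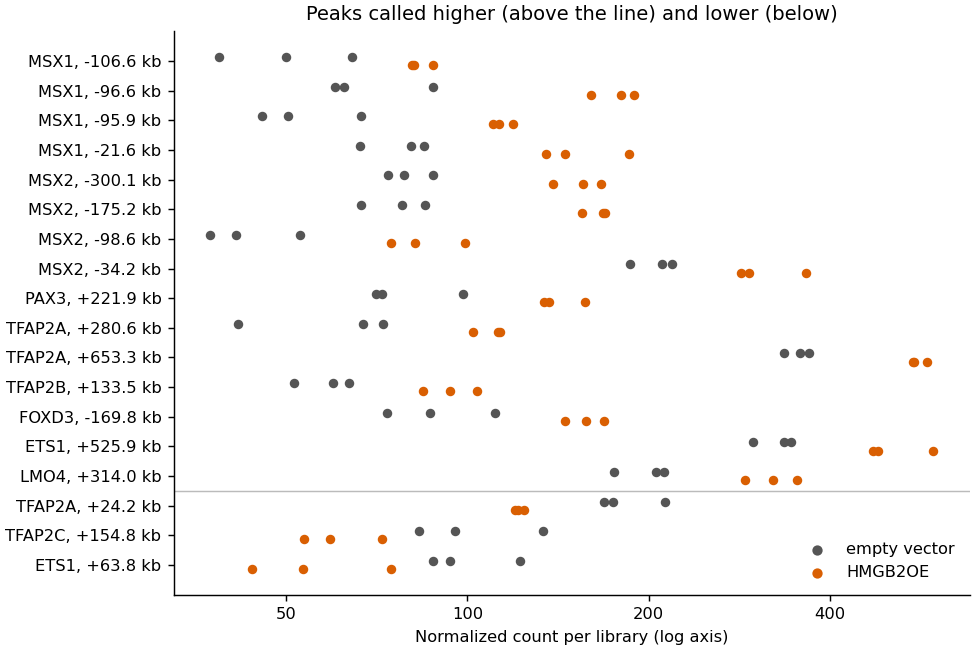
Normalized counts per library on a log axis for the 15 peaks called higher and the 3 called lower. Labels give the distance from the start site, with + for downstream. In all 18 peaks the 3 HMGB2OE libraries do not overlap the 3 empty vector libraries. The peaks were called on these same libraries, so this separation is not separate evidence. Empty vector means of the 15 higher peaks run from 43.9 to 354.

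The 15 higher peaks were alike in position. All lay outside protein-coding genes and over 3 kb from a start site, between 21.6 and 653 kb from their gene's start, and 8 of them were within a non-coding gene or pseudogene. Of the 243 such intergenic member peaks, 6.17% were called higher and 1 was called lower. Among all peaks outside promoters, a wider set that includes gene bodies, 2.19% were called higher and 1.68% lower. No share was taken for all intergenic peaks alone, and MSX1 and MSX2 held 4 of the higher peaks each. Of the other member peaks, 32 near start sites and 38 within gene bodies, none was called higher and 2 were called lower. Higher calls made up 0.874% of all promoter peaks and 2.19% of all other peaks, so few could arise in sets this small. Of the 15 higher peaks, 11 had an empty vector mean under 100. Counts this low were common, since all tested peaks outside promoters had a median of 92.0 over the 6 libraries.

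Promoter peaks had a different balance from the distal ones. Of the 32 peaks within 3 kb of a start site of these genes, 8 had a log2 fold change above 0 (41.4% of all promoter peaks did), with a median of -0.07. The highest promoter peak of each of the 9 genes that had one gave log2 fold changes between -0.16 and 0.49, and none was called, against 0.874% higher and 0.697% lower among all promoter peaks. The largest difference was at TFAP2B, with 113, 118 and 86.6 counts against 146, 185 and 110, where the groups overlapped (log2 fold change 0.49, SE 0.17, adjusted p = 0.093, edgeR). Without HMGB2OE replicate 3 this peak passed (log2 fold change 0.64, adjusted p = 0.026, edgeR). At TFAP2C the 3 HMGB2OE libraries (1238, 1235 and 1229) were all below the 3 empty vector libraries (1313, 1359 and 1382), a log2 fold change of -0.13 that did not pass. The strongest promoter peaks of ETS1 and TFAP2A lay at alternative starts 64.9 and 15.2 kb inside the genes. The ETS1 peak held 2941 to 3605 counts per library, whereas the peak at the outermost ETS1 start held 25.9 to 76.4.

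**Figure D5:**
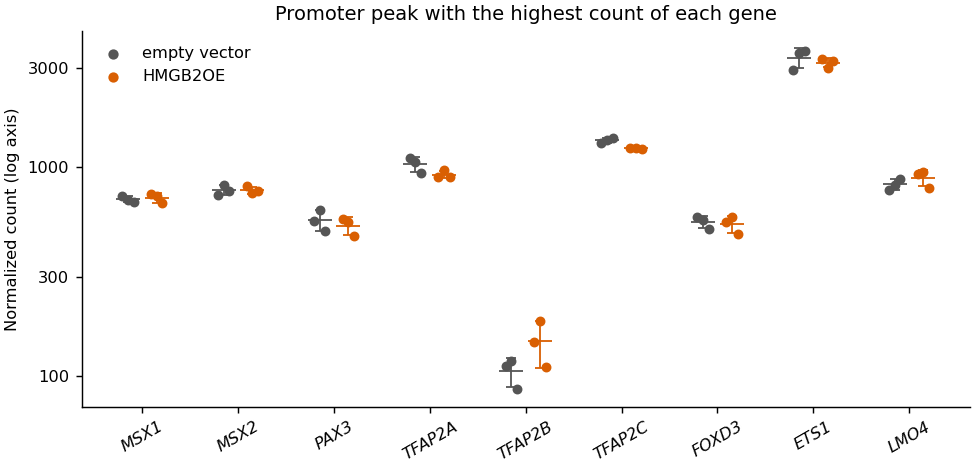
Normalized counts per library, on a log axis, of the promoter peak with the highest count for the 9 genes that had one. Bars give the mean ± SD (n = 3). The groups overlap at every gene except TFAP2C, where HMGB2OE is lower by 0.13 on the log2 scale, and no peak was called.

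The printed sequences differ in the words they hold. AP-1 words begin at positions 135 and 156 of the 96.6 kb MSX1 sequence, 21 and 154 of the 21.6 kb sequence, 210 of the 175 kb MSX2 sequence, and 153 and 272 of the TFAP2A sequence, counted from 1 at the first base shown. The 95.9 kb MSX1 sequence holds none. Searched on both strands of whole peaks, an AP-1 word was in 8 of the 15 higher peaks and in 89 of the 313 member peaks (28.4%), against 28.01% of all tested peaks and 35.9% of all peaks called higher. None of the 3 lower peaks held one. The TFAP2 word GCCNNNGGC was in 17.9% of member peaks and 19.4% of all, the SOX word ACAAAG in 39.3% and 37.3%, and TAATTA in 13.1% and 11.6%. The forkhead word TGTTTAC was in 6.39% and 8.05%, the ETS word CCGGAAG in 2.56% and 4.27%, and the CRE word TGACGTCA in 0.319% and 0.758%. Of 35116 RefSeq promoters, 4.95% held an AP-1 word and 4.84% held TAATTA. The AP-1 and CRE words are different strings, and CRE matches do not count as AP-1 matches.

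Base composition moved with the calls. Over all tested peaks the share called higher was 0.947% below 40% GC and 2.62% between 50% and 60% GC, and the shares called lower were 3.13% and 0.634%. Median GC was 46.2% in the 15 higher member peaks and 38.0% in the 3 lower ones. Between 40% and 50% GC, 9 of 161 member peaks were called higher (5.59%), against 2.32% of all peaks of that class, and between 50% and 60% GC 5 of 61 (8.20%) were. With the GC trend of each library removed, 15 member peaks were again called higher, 13 of them among the first 15. The higher calls lost were the MSX2 peak 34.2 kb upstream, at a log2 fold change of 0.54, and the MSX1 peak 107 kb upstream, at 0.67 (adjusted p = 0.056, edgeR). Lower calls again numbered 3, but they were not the same peaks. The TFAP2A intron peak (-0.54) and the TFAP2C peak 155 kb downstream (-0.62, adjusted p = 0.054, edgeR) lost their calls.

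Other regulators of border and crest had shares of called peaks near those of all peaks, while several of their loci were called higher. The 20 genes of a list with ZIC, DLX, SOX and SNAI factors had 406 peaks, of which 8 were called higher (1.97%, against 1.87% of all) and 6 lower (1.48%, against 1.44%), with a median log2 fold change of 0.01. SOX9, a crest factor with a wide regulatory desert, had 106 of the 406 peaks and held 4 of the 8 and 3 of the 6. EBF1, with 42 peaks, held 1 and 2. Loci rose for 3 of the 20 genes and fell for none, against 5.83% and 3.44% of all loci, and 2 of the 10 member loci rose. The difference between the list and the 10 genes was not tested. SNAI2, a crest repressor that promotes migration, was at a log2 fold change of 0.22 (adjusted p = 0.00365, edgeR). DLX5, a homeodomain gene of the border, was at 0.29 (adjusted p = 0.028, edgeR). ZIC5 was at 0.21 (adjusted p = 0.046, edgeR) and had no called peak, so it is named after its value was seen. The SOX10 locus, the melanocyte lineage factor, held 1842 counts in empty vector cells and 1795 in HMGB2OE cells, a log2 fold change of -0.03 (adjusted p = 0.777, edgeR).

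Relatives and cofactors of the 10 genes had loci called in both directions. Of 22 genes, 21 had peaks. Of their 331 peaks 8 were called higher (2.42%, against 1.87% of all peaks) and 7 lower (2.11%, against 1.44%). At the locus level 4 of the 21 rose and 1 fell, against 5.83% and 3.44% of all loci. LDB2, which encodes a LIM-domain-binding cofactor, rose by a log2 fold change of 0.37 (adjusted p = 6.9e-05, edgeR). Of its 31 peaks 3 were called higher, against 1.87% of all peaks. LMO3, a relative of LMO4, fell, with a log2 fold change of -0.36 (adjusted p = 0.000354, edgeR). Of its 16 peaks 4 were called lower, against 1.44% of all peaks. LMO1 (0.19), PAX2 (0.20) and PAX6 (0.54, from a single peak) also rose and are named after their values were seen. Among 10 melanocyte and crest effector genes, 4 of 158 peaks were called higher and 4 lower (2.53% each, against 1.87% and 1.44% of all peaks). At the locus level 2 of the 10 rose and 1 fell, beside the 5.83% and 3.44% of all loci. The KIT locus, which encodes the receptor for stem cell factor, rose (0.27, adjusted p = 0.000342), as did RET (0.29, adjusted p = 0.00481), a receptor of crest-derived neurons, and DCT, a pigment enzyme gene, fell (-0.46, adjusted p = 0.032, edgeR).

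The libraries held 26910189 to 45645294 counts in peaks, and promoters of melanoma markers were examined beside those of other cell types. SOX10 and MITF promoter peaks had 830.5 to 890.5 and 1205 to 1449.8 normalized counts per library, PMEL 370.4 to 515.6 and MLANA 146 to 167, while no promoter peak was found for TYR or DCT. Promoter peaks of other lineages were present too, from 83.4 counts for DCN to 828 for COL1A1, both fibroblast genes. Promoter counts alone therefore do not identify the cells. No marker locus of the epithelial, immune, endothelial or fibroblast lists was called. Of the 43 peaks of the immune markers, 5 were called lower (11.6%, against 1.44% of all peaks), all at PTPRC, and none higher. The median GC of these 43 peaks was 37.6%, and 3.13% of all peaks below 40% GC were called lower. Among the 6 melanoma markers the DCT locus was called lower. Of their 69 peaks 2 were called lower (2.90%, against 1.44% of all peaks) and none higher.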

How the data were processed

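ATAC-seq was done on A375 cells, 3 empty vector and 3 HMGB2OE libraries, grouped by the sample labels. The authors used Bowtie 2 and hg38 for alignment of trimmed reads, Picard for deduplication and MACS2 for peak calling, with melanocyte data from a public source as control. Peaks outside blacklisted regions were merged into a shared atlas, and the deposited raw counts per peak and library came from featureCounts. The Tn5 shift and the treatment of multi-mapping reads were not given in the sources used here. Both could move counts at peak edges and in repeats. The submitters' processing notes name Trim Galore 0.6.7 and cutadapt 4.0.

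Libraries held 26910189 to 45645294 counts in peaks. At MSX1, a peak with a mean of 38.4 normalized counts had a standard error of 0.31 on the log2 scale and the promoter peak 0.087. Counts were fitted with edgeR 4.0.16 (R 4.3.3; filterByExpr, TMM, quasi-likelihood F test on group alone, Benjamini-Hochberg adjustment), over 150117 peaks and, summed per gene, over 18340 loci. The standard error of a log2 fold change was taken as its size over √F. Counts were normalized by effective library size and rescaled to the mean size. The scripts were tested on simulated counts. DESeq2 1.42.0 was an alternative, and other alternatives changed scaling, filter, GC correction, replicate block, assignment and libraries. Replicates of a group differed by more than counting noise (chi-square per degree of freedom 2.50 to 4.69), so all 6 libraries were counted. All 123 chromosome names matched hg38. Peak coordinates are those of the table, which does not state whether its starts count from 0 or 1. Coordinates of printed sequences count from 1. Motif words were matched exactly. RefSeq promoters were matched by symbol for 8 of the 10 genes.

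The members and gene lists were chosen with earlier results of these data known. All member genes and every called member peak were named. List genes with a called peak could be named, at most 6 a list by number of calls then symbol, and SOX10 as a marker.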

Additional observations from a re-analysis of the deposited data

How the results depend on the processing

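Called-higher member peaks numbered 13 to 18 in the 15 fits with another scaling, filter, tool, block or left-out library, and 20 with no fold limit or a lower one. Called-lower peaks numbered 3, and 2 with library size only, 4 with the replicate block (with or without GC removed), 5 with a loess trend on mean count removed, 11 with no fold limit, 10 with a lower limit, and 2 to 5 when a library was left out. The median log2 fold change was 0.0053 with 10 Mb windows centred. Over all peaks, calls higher numbered 2800, with 1821 (without HMGB2OE replicate 1) to 3192 in the other fits at the 1.5-fold limit, 5164 with no fold limit and 5045 with a lower one, and calls lower 2166, with 4546 and 4283 under the last 2. The GC and loess corrections were fitted on single peaks only, so the locus values were not tested with them. Median GC was 53.4% in MSX1 peaks, 48.0% in MSX2 peaks and 46.2% in all tested peaks. MSX1 and MSX2 were called in every fit made at the locus level except promoter peaks only. In that fit member loci called higher were 0 and MSX1 was at 0.0744. The cause was not tested.

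Values near 0 changed sign. The MSX2 promoter peak was 0.0186 with library size only, 0.00204 with DESeq2 size factors, 0.00149 with DESeq2, 0.0196 with GC removed, 0.0194 with GC removed and the replicate block, 0.0469 with loess, and -0.0348 to 0.0446 without single libraries. The FOXD3 promoter was 0.00241 with GC removed. The ETS1 locus was -0.0246 on promoters only and -0.00194 without them, and TFAP2B -0.0248 without them. Leaving out libraries gave -0.0122 to 0.0586 (MSX1 promoter), -0.17 to 0.01 (PAX3 promoter), -0.0931 to 0.0334 (FOXD3 promoter), -0.0649 to 0.0097 (PAX7 locus), -0.0104 to 0.0569 (TFAP2B locus), -0.0294 to 0.0299 (FOXD3 locus) and -0.0268 to 0.0454 (ETS1 locus).

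Same-numbered libraries had deviation correlations of -0.082, 0.155 and 0.119. Empty vector replicates 2 and 3 each correlated best with the HMGB2OE library of the same number. Empty vector replicate 1 correlated best with HMGB2OE replicate 3 (0.123). These values do not settle whether same-numbered libraries were handled together, and the labels give only a shared number. With the replicate block 18 member peaks were called higher and 4 lower. At MSX1 a log2 fold change of 0.94 at a mean of 38.4 normalized counts did not pass; the parts of depth and replicate spread in this were not tested.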

Other observations

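Tested peaks of other genes within 1 Mb of each gene gave a regional level for comparison. Their median log2 fold change was 0.18 around TFAP2B (29 peaks), 0.10 around PAX7 (124 peaks), 0.06 around FOXD3 (111 peaks) and 0.04 around ETS1 (79 peaks). It was 0.03 around PAX3 (107 peaks), -0.0065 around TFAP2C (107 peaks), -0.02 around LMO4 (43 peaks) and -0.03 around TFAP2A (73 peaks). By the same measure, the median over a gene's own peaks, MSX1 was at 0.61, above its regional median of 0.04. TFAP2B was at 0.01, below the 0.18 of the peaks around it. The locus values of 0.42 and 0.02 come from summed counts and are a different measure. These differences from the surroundings were not tested.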
